A study of Mus musculus with 8 samples.

Results

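The genes described here are the xenobiotic receptors of liver, the reductase that drives its cytochrome P450 enzymes, and P450 genes that these receptors control. The list names 10 genes: Nr1i2, Nr1i3, Ahr, Por, Cyp1a1, Cyp1a2, Cyp2a5, Cyp2b10, Cyp2b9 and Cyp2b13. Their probes were found through the RefSeq accession that the arrays give for each probe, which placed 9 of the 10 genes on the array with 11 of its 55681 probes. No probe carried an accession of Cyp2a5, so that gene has no value here. All 11 probes passed the filter on dim probes, so 9 genes stand among the 14066 genes tested.

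Liver RNA of 8 mice, all 10 weeks old and on a C57BL6/129SV background, was labelled with Cy3 and hybridized to Agilent mouse arrays, 1 mouse per array. The labels place 4 mice in the Rap1 -/- group and 4 in the wild-type group, and call them biological replicates. The knockout is constitutive and in the whole body: floxed mice were crossed with mice carrying cre under the adenovirus EIIa promoter, and the cre allele was later bred out, so the loss of Rap1 is not limited to hepatocytes. According to the study's text the young animals used for expression profiling were female. The labels give neither sex nor feeding state nor the hour of collection. The study's text describes liver profiling of young females and, separately, of young females after fasting. The labels do not tell from which of these the arrays come. In whole liver, fewer cells of a type and less RNA per cell cannot be told apart.

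Values are log2 signals relative to the 75th percentile of the same array, so that 0 is that percentile and a step of 1 is a doubling. They can be compared between mice for 1 probe, but not between probes. Each of 2 slides held 2 wild-type and 2 Rap1 -/- arrays, always in the same positions, so position and genotype cannot be told apart. A probe of Terf2ip, the gene that encodes RAP1, was above background in 4 of 4 wild-type and 0 of 4 Rap1 -/- mice and was at least 18.96-fold lower in the latter (adjusted p = 7.09e-06). A second Terf2ip probe did not show this. It was above background in 4 of 4 mice of each genotype and read higher in Rap1 -/- mice. Its means were -0.92 in wild-type and 0.285 in Rap1 -/- mice (log2 difference 1.20, adjusted p = 0.127). All 7 hepatocyte markers examined were measured, with a summed signal of 7720 to 8730 times the reference percentile in wild-type and 6950 to 7460 in Rap1 -/- mice, ranges that do not overlap. The brightest markers weigh most in such a sum, and how often sums of other genes part the genotypes was not counted. Of the 7 markers, 3 were above 0 and 4 below (median log2 difference -0.115), and 0 passed an adjusted p of 0.05. An unadjusted p under 0.05 in the limma fit was found for 1, Alb, on the lower side (-0.21, SE 0.09), where 2.35% of all genes had one. Xist was above background in all 8 mice and none of 4 Y-linked genes passed the filter. Of all genes tested, 2 passed an adjusted p of 0.05 (0.0142%), both lower in Rap1 -/- liver, namely the sulfotransferase gene Chst4 and the transcription factor gene Zfhx3. Terf2ip is not among these 2, because each gene was read from its brightest probe, for Terf2ip the second one.

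Nr1i2 encodes the pregnane X receptor (PXR) and Nr1i3 the constitutive androstane receptor (CAR), nuclear receptors that bind DNA together with a retinoid X receptor and switch on genes for drug and steroid oxidation, conjugation and export. Ahr encodes the aryl hydrocarbon receptor, a helix-loop-helix protein that pairs with ARNT once a ligand such as a planar aromatic compound is bound. Their best known targets in mouse liver are Cyp3a11 for PXR, Cyp2b10 for CAR and the Cyp1a genes for the aryl hydrocarbon receptor. Microsomal P450 enzymes take their electrons from the reductase that Por encodes.

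None of the 9 measured genes passed the test between the genotypes: 0 of 9 passed the adjusted threshold, against 0.0142% of all genes tested, and 0 of 9 had an unadjusted p under 0.05, against 6.36%. The log2 difference was above 0 for 7 of the 9, where 56.1% of all genes were above 0, and its median was 0.08, where that of all genes was 0.02. The fitted differences ran from -0.14 for Por to 0.44 for Cyp2b13. For no gene did the 4 Rap1 -/- mice lie wholly above or wholly below the 4 wild-type mice, as they did for 4.31% of all genes. An exact permutation test of 4 against 4 mice cannot give a p below 0.0286.

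**Figure D1:**
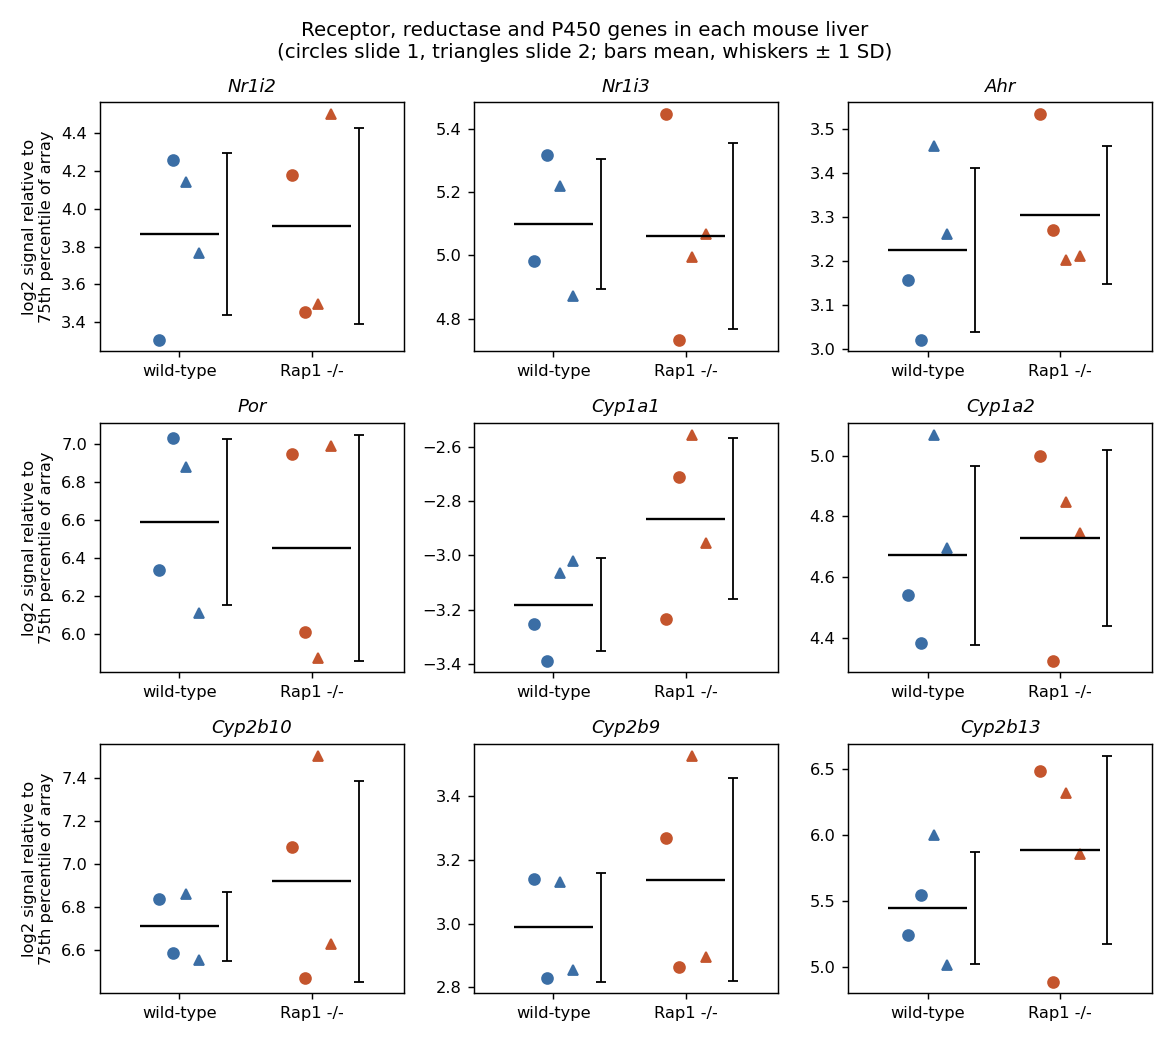
Log2 signal relative to the 75th percentile of each array (vertical axis) in the 4 wild-type and 4 Rap1 -/- mice for 9 genes, with circles for slide 1, triangles for slide 2, horizontal bars for means and whiskers for 1 SD. The genotypes overlap in each panel, and the same 2 mice of each genotype are the higher ones for Por and Nr1i2.

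The Nr1i2 probe measured 3.31, 4.26, 4.14 and 3.76 in wild-type mice 1 to 4 and 4.18, 3.45, 3.50 and 4.50 in Rap1 -/- mice 1 to 4. The ranges of the genotypes overlapped for most of their width, and the highest of the 8 mice was 2.29-fold above the lowest. The means were 3.87 ± 0.43 and 3.91 ± 0.52 (SD, n = 4 each), a log2 difference of 0.04 (SE 0.29, 95% interval -0.61 to 0.69, adjusted p = 0.992). That interval runs from 0.653-fold to 1.62-fold, so these arrays do not settle changes of PXR mRNA within it.

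The brighter Nr1i3 probe measured 4.98, 5.32, 5.22 and 4.87 in wild-type and 5.45, 4.73, 4.99 and 5.07 in Rap1 -/- mice. The highest and the lowest mouse were both Rap1 -/-, mouse 1 and mouse 2. The log2 difference was -0.04 (SE 0.17, 95% interval -0.42 to 0.34, adjusted p = 0.990). A second Nr1i3 probe read 3.49, 3.79, 3.70 and 3.49 against 3.91, 3.46, 3.53 and 3.78, with the same 2 Rap1 -/- mice at the ends of its range and a log2 difference of 0.05 (SE 0.14, adjusted p over probes = 0.965).

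The brighter Ahr probe measured 3.16, 3.02, 3.46 and 3.26 in wild-type and 3.54, 3.27, 3.20 and 3.21 in Rap1 -/- mice. Among the brighter probes of the 3 receptor genes it had the narrowest spread between mice, with the highest mouse 1.43-fold above the lowest. The log2 difference was 0.08 (SE 0.13, 95% interval -0.21 to 0.37, adjusted p = 0.932), and it had opposite signs on the slides, 0.31 on slide 1 and -0.15 on slide 2. The second Ahr probe was dim (-3.68 ± 0.56 in wild-type and -3.74 ± 0.34 in Rap1 -/- mice, SD, n = 4 each). It was above background in 3 of 4 wild-type mice, and it differed by -0.34 on slide 1 and by 0.23 on slide 2.

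The proteins that work with these receptors were examined as a list of 21 genes: the retinoid X receptors, ARNT, the chaperones that hold CAR and the aryl hydrocarbon receptor in the cytoplasm, coactivators, corepressors and hepatocyte factors. Of the 20 tested, 0 passed the adjusted threshold and 0 had an unadjusted p under 0.05. The median log2 difference was 0.00. The smallest p values belonged to Dnajc7, which encodes a co-chaperone of CAR (-0.16, SE 0.08, adjusted p = 0.789), Foxa2, a liver transcription factor gene (0.29, SE 0.17), the retinoid X receptor gene Rxrb (-0.14, SE 0.10) and the coactivator gene Ncoa3 (-0.21, SE 0.15).

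Por, the P450 reductase gene, measured 6.34, 7.03, 6.88 and 6.11 in wild-type and 6.95, 6.01, 5.87 and 6.99 in Rap1 -/- mice. Within each genotype 2 mice were high and 2 were low, and the low Rap1 -/- mice lay below the lowest wild-type mouse. The log2 difference of -0.14 had a wide error (SE 0.31, 95% interval -0.85 to 0.58, adjusted p = 0.961), and the residual spread of Por was larger than that of 91.9% of genes tested. Without Rap1 -/- mouse 3 the difference was 0.06.

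Por belongs with the genes that bring electrons and heme to P450 enzymes, of which 15 of 15 listed were tested. None passed the adjusted threshold, the median log2 difference was 0.10, and 1 gene had an unadjusted p under 0.05 on the higher side, where 4.01% of all genes did. That gene was Uros, of the heme pathway, at 2.58, 2.35, 2.50 and 2.75 in wild-type and 2.94, 3.12, 2.78 and 2.79 in Rap1 -/- mice (0.36, SE 0.12, adjusted p = 0.770). Smaller differences were measured for Cyb5a, for the other electron donor of microsomal P450s, cytochrome b5 (0.22, SE 0.10), and Pgrmc1, whose heme-binding protein associates with P450s (0.18, SE 0.09).

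**Figure D2:**
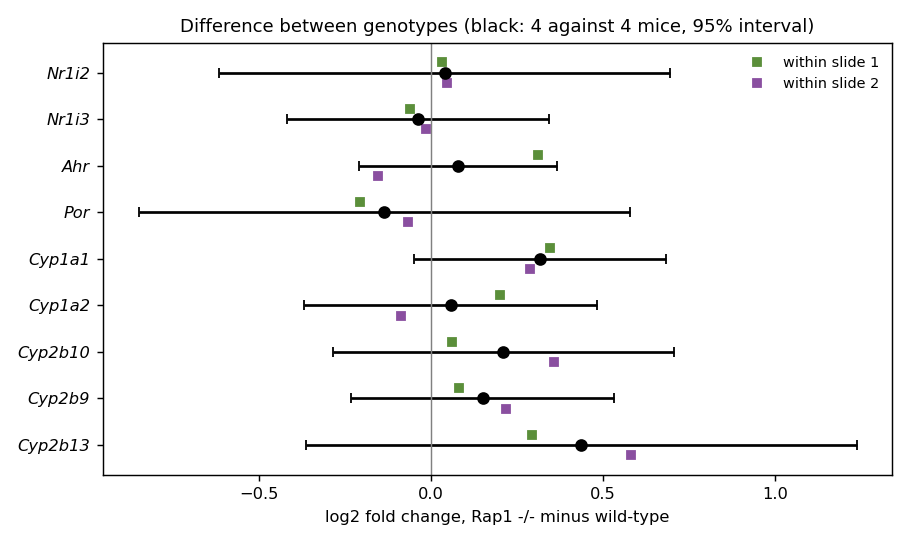
Log2 difference of Rap1 -/- minus wild-type liver (horizontal axis) for 9 genes, with the 95% interval of the 4 against 4 comparison in black and the difference within each slide as coloured squares. All 9 intervals include 0, and the squares lie on opposite sides of 0 for Ahr and Cyp1a2.

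Cyp1a1 and Cyp1a2 are neighbouring genes whose enzymes oxidise polycyclic and aromatic compounds. Cyp1a1 is known as nearly silent in liver without an inducer, while Cyp1a2 is expressed constitutively around the central vein. The Cyp1a1 probe was dim yet above background in all 8 mice, at -3.25, -3.39, -3.07 and -3.02 in wild-type and -3.24, -2.71, -2.56 and -2.95 in Rap1 -/- mice. Of the Rap1 -/- mice 3 lay above the highest wild-type mouse, and mouse 1 lay within the wild-type range. The log2 difference was 0.32 (SE 0.16, 95% interval -0.05 to 0.68), which did not pass (adjusted p = 0.789; two-sided exact permutation p = 0.114). It was 0.35 on slide 1 and 0.29 on slide 2. With the values that the authors processed it was 0.16, and under quantile normalization of the processed signal 0.49.

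The window before the Cyp1a1 start is shown because it holds the core letters at which the aryl hydrocarbon receptor and ARNT bind, GCGTG, here followed by a TATA box, TATAAA. Capitals mark these 2 matches, which begin at bases -54 and -30 from the start site. Binding at them was not tested, and matching letters alone do not show that the receptor uses the match at base -54. The sequence is the RefSeq one on GRCm38.p6, 5′ to 3′, chr9:57697463-57697612, plus strand. GCGTG on either strand occurs in the 250 bases before the start of 28.2% of 32851 mouse promoters, and TATAAA on the forward strand in 7.59%.
Cyp1a1: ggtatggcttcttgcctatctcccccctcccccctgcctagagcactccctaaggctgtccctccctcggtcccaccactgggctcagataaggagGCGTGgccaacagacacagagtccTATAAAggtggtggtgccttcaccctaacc

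The Cyp1a2 probe measured 4.54, 4.38, 5.07 and 4.69 in wild-type and 4.999, 4.32, 4.85 and 4.74 in Rap1 -/- mice, and Rap1 -/- mouse 2 was the lowest of the 8. Its log2 difference was 0.06 (SE 0.19, 95% interval -0.37 to 0.48, adjusted p = 0.980), with 0.20 on slide 1 and -0.09 on slide 2. Of 9 other genes listed as targets of the aryl hydrocarbon receptor, 7 were tested and 0 passed, with a median log2 difference of 0.03. The quinone reductase gene Nqo1 was the 1 gene with an unadjusted p under 0.05, at -0.52, -0.08, 0.00 and -0.06 in wild-type and 0.30, -0.17, 0.48 and 0.36 in Rap1 -/- mice (0.41, SE 0.17, adjusted p = 0.776). The glutathione S-transferase gene Gsta1 had a log2 difference of 0.92 (SE 0.42, adjusted p = 0.783), Nfe2l2, for the stress factor NRF2, 0.19 (SE 0.12) and the aldehyde dehydrogenase gene Aldh3a1 -0.21 (SE 0.18).

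Cyp2b10 is the classical gene that CAR switches on after phenobarbital, and Cyp2b9 and Cyp2b13 are its paralogs with higher expression in female than in male mouse liver. The RefSeq annotation orders them on chromosome 7 as Cyp2b10, Cyp2b13, Cyp2b9, Cyp2a4 and Cyp2a5. Their start regions are shown because Cyp2b9 and Cyp2b13 share nearly all letters there while Cyp2b10 does not. The 150 bases before the start were identical at 149 positions between Cyp2b9 and Cyp2b13 (99.3%), against 73.2% in an alignment of Cyp2b10 with Cyp2b9. Capitals mark matches to GCGTG, the core letters of the aryl hydrocarbon receptor site, on either strand in Cyp2b10. In the other 2 genes they mark the hexamer AGGTCA, bound by many nuclear receptors. On either strand GCGTG occurs in the 250 bases before the start of 28.2% of mouse promoters, and AGGTCA in 14.0%. Binding at these matches was not tested. The phenobarbital-responsive enhancer of Cyp2b10 is known to lie farther upstream than this window. The sequences are those of RefSeq on GRCm38.p6, 5′ to 3′, for Cyp2b10 at chr7:25897508-25897657, plus strand, for Cyp2b9 at chr7:26173259-26173408, plus strand, and for Cyp2b13 at chr7:26061345-26061494, plus strand.
Cyp2b10: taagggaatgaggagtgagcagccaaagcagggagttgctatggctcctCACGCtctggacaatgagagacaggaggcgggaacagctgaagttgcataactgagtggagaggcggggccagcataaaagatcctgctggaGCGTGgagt
Cyp2b9: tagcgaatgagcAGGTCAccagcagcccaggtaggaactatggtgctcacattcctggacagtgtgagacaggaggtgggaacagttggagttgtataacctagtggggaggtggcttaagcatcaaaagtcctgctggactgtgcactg
Cyp2b13: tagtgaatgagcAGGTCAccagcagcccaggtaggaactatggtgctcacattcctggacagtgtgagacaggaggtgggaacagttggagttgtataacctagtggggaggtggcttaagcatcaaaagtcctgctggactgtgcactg

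The Cyp2b10 probe measured 6.84, 6.59, 6.86 and 6.56 in wild-type and 7.08, 6.47, 7.50 and 6.63 in Rap1 -/- mice. The wild-type mice lay close together (SD 0.16), while the Rap1 -/- mice spread on both sides of them (SD 0.47), with mice 1 and 3 above and mouse 2 below. The log2 difference was 0.21 (SE 0.22, 95% interval -0.29 to 0.70, adjusted p = 0.887), and without Rap1 -/- mouse 3 it was 0.02. Without Rap1 -/- mouse 2 it was 0.36.

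The Cyp2b9 probe measured 3.14, 2.83, 3.13 and 2.85 in wild-type and 3.27, 2.86, 3.53 and 2.90 in Rap1 -/- mice. Again mice 1 and 3 of the Rap1 -/- group were above the wild-type range. Its log2 difference was 0.15 (SE 0.17, 95% interval -0.23 to 0.53, adjusted p = 0.896), and 0.02 without Rap1 -/- mouse 3.

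Cyp2b13 varied most, with 5.24, 5.54, 5.997 and 5.02 in wild-type and 6.48, 4.89, 6.32 and 5.86 in Rap1 -/- mice. The highest of the 8 was 3.01-fold above the lowest, and the residual spread was larger than that of 94.2% of genes tested. The log2 difference was 0.44 (SE 0.35, 95% interval -0.36 to 1.24, adjusted p = 0.857). It was 0.77 without Rap1 -/- mouse 2 and 0.24 without Rap1 -/- mouse 1, and did not pass the adjusted threshold in either case.

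Across the 8 mice Cyp2b10 and Cyp2b9 moved together, while their pairs with Cyp2b13 did not pass after adjustment. Cyp2b10 and Cyp2b9 gave a Pearson r of 0.983 (exact permutation p = 0.000546, adjusted over 21 pairs 0.0115) and a Spearman rho of 0.881 (exact permutation p = 0.00724, adjusted 0.0760). Without the 2 mice farthest from the Cyp2b10 median r was 0.944, and with genotype and slide means taken out it was 0.982. Cyp2b10 with Cyp2b13 gave r = 0.773 and rho = 0.905 (exact permutation p = 0.0180 and 0.00456, adjusted 0.165 and 0.0760), and 0.569 without the 2 farthest mice. Cyp2b9 with Cyp2b13 gave r = 0.723 and rho = 0.690 (exact permutation p = 0.0412 and 0.0694, adjusted 0.169 and 0.243), which fell to 0.362 without those mice. Each slide holds 4 mice, too few for a value of its own. The array files hold no probe sequences, and whether a probe for 1 Cyp2b gene also reads its paralogs was not tested.

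**Figure D3:**
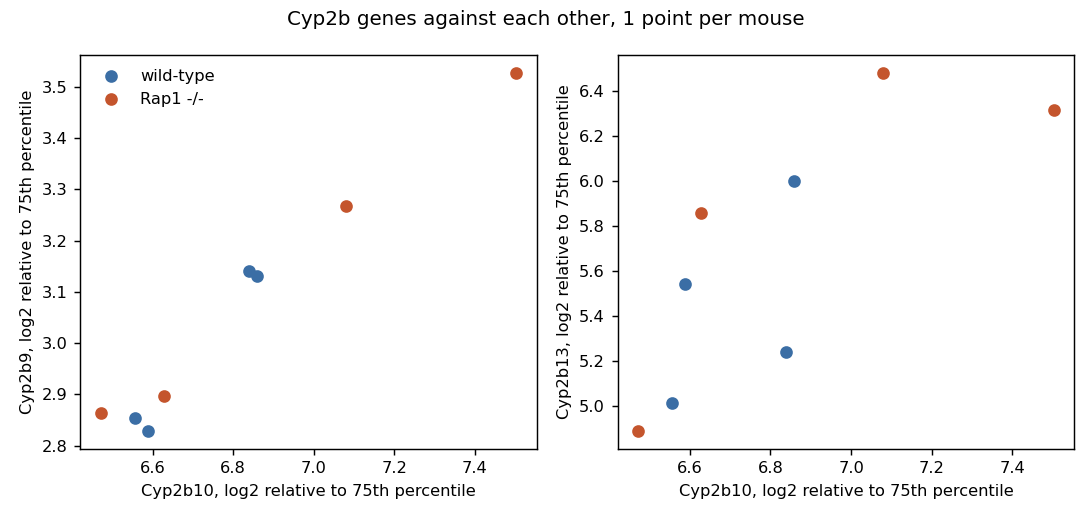
Log2 signal of Cyp2b10 (horizontal axes) against Cyp2b9 (left) and Cyp2b13 (right), 1 point per mouse, coloured by genotype. The Cyp2b10 and Cyp2b9 points lie close to a line (r = 0.983), and the 2 highest Cyp2b10 mice are Rap1 -/-.

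Among the pairs of measured genes other than Por and Nr1i2, no further pair passed after adjustment. Ahr and Cyp1a2 gave r = 0.751 and rho = 0.524 (exact permutation p = 0.0315 and 0.197, adjusted 0.165 and 0.375), and r was 0.311 without the 2 farthest mice. Nr1i3, which encodes CAR, and Cyp2b13 gave r = 0.719 and rho = 0.786 (exact permutation p = 0.0483 and 0.0279, adjusted 0.169 and 0.117), with r = 0.338 without the 2 farthest mice and 0.913 with genotype and slide means taken out. Nr1i3 and Cyp2b10 gave r = 0.289 and rho = 0.548 (exact permutation p = 0.493 and 0.171, adjusted 0.646 and 0.375), and r was -0.18 without the 2 farthest mice. Ahr and Cyp1a1 gave r = 0.0505 and rho = 0.238 (exact permutation p = 0.908 and 0.582, adjusted 0.950 and 0.815), and 0.714 without the 2 farthest mice. No pair of Nr1i3 or Ahr with a P450 gene passed, and Nr1i2 was in none of the pairs examined.

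Por and Nr1i2 split the mice into the same high and low sets. Wild-type mice 2 and 3 and Rap1 -/- mice 1 and 4 were high, and wild-type mice 1 and 4 and Rap1 -/- mice 2 and 3 were low, which puts 2 mice of each genotype and 2 of each slide on either side. The gap between the sets was 0.54 for Por, between 6.34 and 6.88, and 0.38 for Nr1i2, between 3.76 and 4.14. These gaps were 46.9% and 31.5% of the range, and for Nr1i2 the second largest gap was 0.268. The largest gap took a larger share of the range than that of Nr1i2 for Ahr (37.4%), Cyp2b9 (37.2%) and Cyp2b10 (41.1%), where it set off 1 or 2 mice. Por and Nr1i2 were left out of the pairs for their 4 and 4 split. Whether the Nr1i2 values form 2 sets was not tested, and its pairs with P450 genes were not examined.

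Clock and PAR bZIP genes are known to swing with the hour of the day in liver, and PAR bZIP factors are known to regulate Por and Nr1i3. Of the 11 such genes tested, the same 4 mice were the highest for 8 and the lowest for 2. The remaining gene, Nr1d1, had another order, with wild-type mouse 1 highest (2.37) and wild-type mouse 2 lowest (0.79). The 4 mice were taken from the Por values, and the share of all genes with this order was not counted. Dbp, a gene of such a factor, measured 6.25, 6.84, 7.28 and 5.94 in wild-type and 7.10, 4.49, 6.14 and 6.90 in Rap1 -/- mice. Hlf, for a second PAR bZIP factor, measured 2.71, 3.37, 3.19 and 2.71 against 3.39, 2.27, 2.41 and 3.07. The period gene Per1 measured 3.59, 4.99, 4.91 and 4.47 against 4.96, 3.80, 2.59 and 5.15. For all 3 genes wild-type mice 2 and 3 and Rap1 -/- mice 1 and 4 were above the other 4 mice. Arntl, which encodes the clock activator BMAL1 and is known to run opposite in phase, was lowest in those same mice, at -1.48, -3.02, -3.77 and -1.37 in wild-type and -3.60, 0.07, -0.82 and -3.11 in Rap1 -/- mice. None of the 11 clock and PAR bZIP genes tested passed between genotypes (median log2 difference -0.16, 0 with an unadjusted p under 0.05). The part of the clock genes in the spread of Por and Nr1i2 was not tested.

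**Figure D4:**
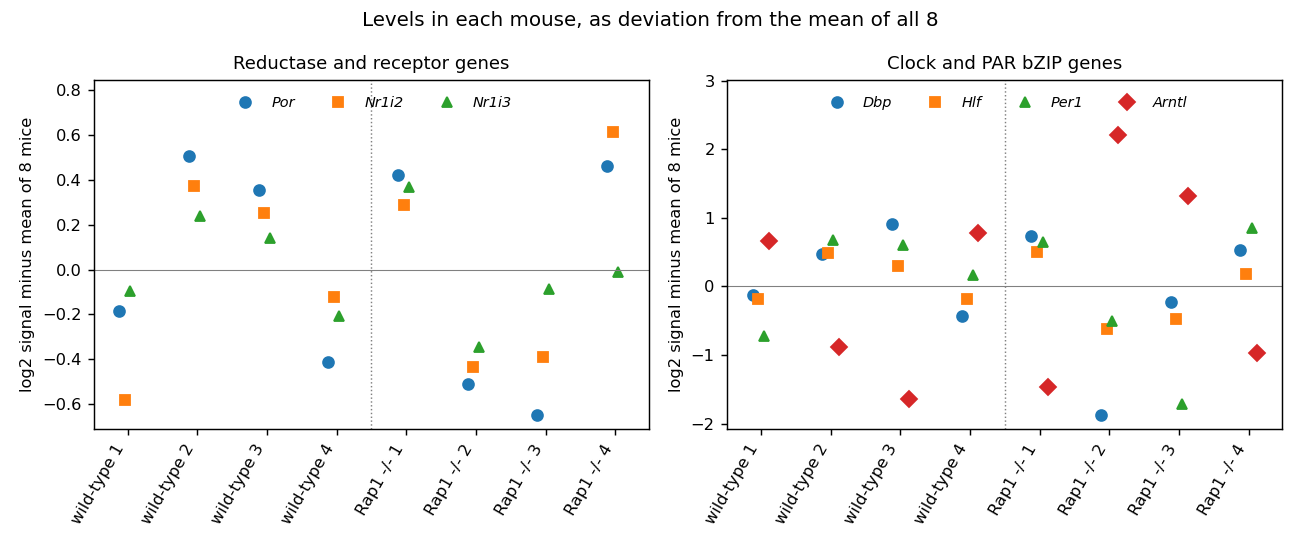
Log2 signal minus the mean of the 8 mice (vertical axes) in each mouse, for Por, Nr1i2 and Nr1i3 on the left and for 4 clock and PAR bZIP genes on the right. Por and Nr1i2 are high in wild-type mice 2 and 3 and Rap1 -/- mice 1 and 4, where Dbp, Hlf and Per1 are high too and Arntl is low.

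Both Nr1i3 probes also had these 4 mice as their highest. On the brighter probe the lowest of them (5.07) lay close to the highest of the others (4.99), and on the second probe the step was from 3.53 to 3.70. Cyp2a4, the near-identical neighbour of Cyp2a5 and a steroid hydroxylase gene of female liver, had the same 4 mice highest, with 8.96, 10.01, 9.93 and 9.13 in wild-type and 10.02, 8.59, 9.32 and 9.84 in Rap1 -/- mice. Its log2 difference between genotypes was -0.07 (adjusted p = 0.99). Whether its probe also reads Cyp2a5 was not tested. Of 9 Cyp2 genes of this chromosome 7 cluster outside the 10, Cyp2a4 included, 7 were tested and 0 passed, with a median log2 difference of 0.04. Cyp2s1 had the smallest p among them (-0.59, SE 0.30, adjusted p = 0.789), followed by Cyp2a12 (0.24, SE 0.14), Cyp2f2 (0.26, SE 0.15) and Cyp2a22 (0.73, SE 0.70).

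Rap1 -/- mouse 2 stood at an end of several of these distributions. It was the lowest of the 8 mice for Nr1i3, Cyp1a2, Cyp2b10, Cyp2b13 and Cyp2a4. This mouse was not the lowest for Cyp2b9, Nr1i2, Por, Ahr or Cyp1a1. It was the highest for the 4 genes with the smallest p in a list of male-biased liver genes: Cyp2d9 at 4.19, where the other 7 mice ran from 3.13 to 3.76, Cyp7b1 at 4.05 (2.37 to 3.23), Elovl3 at -0.48 (-2.22 to -1.15) and Ugt2b1 at 3.54 (2.29 to 3.15). Its Xist level of 1.21 lay inside the range of the other mice, 0.84 to 1.97. None of the 10 tested male-biased genes and none of the 12 tested female-biased genes passed between genotypes (medians 0.18 and 0.11). The part of this pattern in the Cyp2b differences was not tested. Without this mouse the log2 difference was 0.07 for Nr1i3 and 0.19 for Cyp1a2.

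Targets of CAR and PXR outside the Cyp2a and Cyp2b genes were read from a list of 24, of which 21 were tested and 0 passed the adjusted threshold. Of these 19 of 21 were above 0, the median log2 difference was 0.31 beside 0.02 for all genes, and 7 of 21 had an unadjusted p under 0.05 on the higher side, where 4.01% of all genes did, and 0 on the lower side (2.35%). Cyp3a11, the main PXR target in mouse liver, measured 7.81, 7.86, 7.68 and 8.02 in wild-type and 8.62, 8.38, 8.46 and 8.32 in Rap1 -/- mice. Cyp2c55, also inducible through both receptors, measured -1.53, -1.73, -1.50 and -1.35 against -0.82, -1.04, -0.86 and -0.91. The groups did not overlap for either gene, as for 4.31% of all genes. The log2 differences were 0.60 (SE 0.11, adjusted p = 0.493) and 0.62 (SE 0.11, adjusted p = 0.381).

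The paralogous aldehyde dehydrogenase genes Aldh1a1 and Aldh1a7 came next. Aldh1a1 measured 7.21, 7.60, 7.63 and 7.38 in wild-type and 8.11, 7.87, 7.77 and 7.81 in Rap1 -/- mice. Aldh1a7 measured 5.03, 5.43, 5.57 and 5.28 against 5.84, 5.81, 5.66 and 5.73. Neither overlapped between genotypes, and the differences of 0.44 and 0.43 did not pass (SE 0.13 each, adjusted p = 0.770 for both). In all, the Rap1 -/- mice lay wholly above the wild-type mice for 6 of the 21 targets, the others being Gstm3 and Cyp2c50, and wholly below for 0. Of all genes tested, 4.31% did not overlap, counted in both directions together. The median of the 21 targets was 0.11 within slide 1 and 0.213 within slide 2. The list holds Cyp3a and Cyp2c genes already known from these arrays to lie higher, so its count is not independent evidence of a direction.

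Markers of other liver cell types were read beside these targets, and 0 passed the adjusted threshold. Of 6 bile duct markers tested, 4 were above 0 (median 0.41) and 2 below, Cftr (-0.53, SE 0.40) and Krt7 (-0.07, SE 0.24). An unadjusted p under 0.05 was found for 2, Krt19 (0.59, SE 0.19) and Spp1 (0.69, SE 0.24), both higher, where 4.01% of all genes were. Their summed signal was 3.36 to 4.77 times the reference percentile in wild-type and 4.08 to 8.18 in Rap1 -/- mice. All 3 neutrophil markers tested were below 0 (median -0.80), with sums of 3.01 to 12.1 against 2.75 to 6.33, and all 7 Kupffer cell markers were below 0 (median -0.13), with sums of 184 to 255 against 144 to 242. The ranges of these 3 sums overlap between genotypes. Medians for sinusoidal endothelial, stellate, T and NK, B, erythroid and fat cell markers were 0.00, 0.06, -0.16, -0.06, 0.20 and 0.44. In the same order they rest on 7, 7, 6, 5, 5 and 2 tested markers. Among these lists, an unadjusted p under 0.05 was also found for 1 stellate marker, higher. It was found for 1 endothelial and 1 T and NK marker, both lower, where 2.35% of all genes were. The part of other cell types in the differences of the CAR and PXR targets was not tested.

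**Figure D5:**
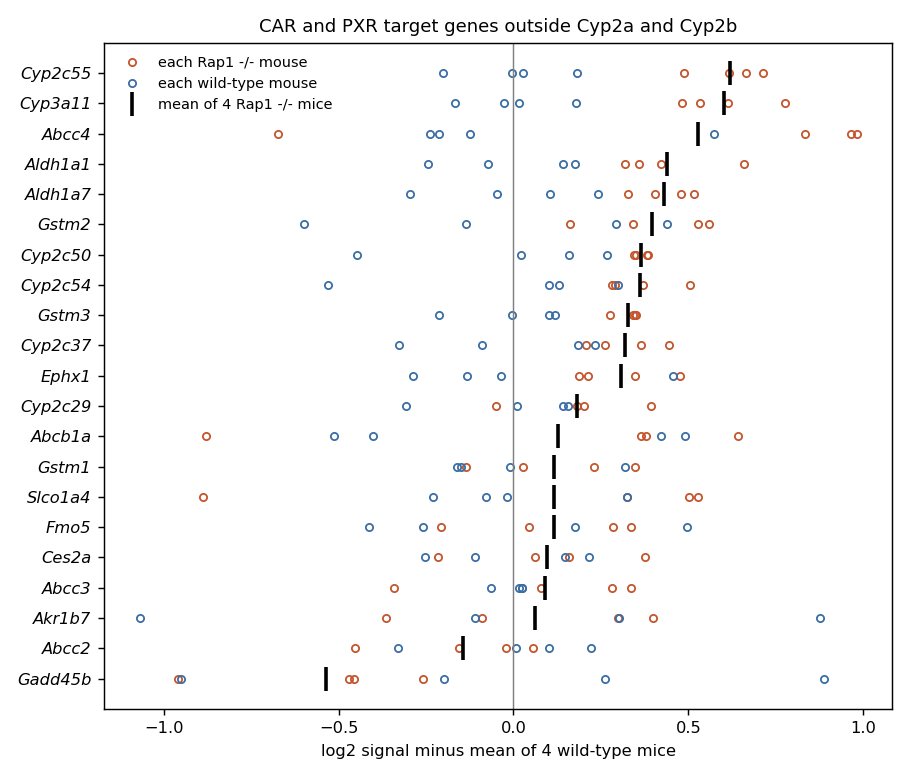
Log2 signal minus the mean of the 4 wild-type mice (horizontal axis) for 21 CAR and PXR target genes, with open circles for single mice and black ticks for the mean of the 4 Rap1 -/- mice. The ticks lie above 0 for 19 genes. For 6 genes, Cyp2c55, Cyp3a11, Aldh1a1, Aldh1a7, Gstm3 and Cyp2c50, the genotypes do not overlap, as for 4.31% of all genes. None passed the adjusted threshold.

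Other liver P450 genes, chosen outside these families, gave 0 of 13 past the threshold and a median log2 difference of 0.18. That median was 0.342 within slide 1 and 0.0224 within slide 2. The arachidonate epoxygenase gene Cyp2j5 measured 0.54, 0.41, 0.42 and 0.35 in wild-type and 0.84, 0.80, 0.68 and 0.71 in Rap1 -/- mice (0.33, SE 0.09, adjusted p = 0.770). These groups do not overlap, as for 4.31% of all genes. The sterol demethylase gene Cyp51 differed by 0.57 (SE 0.24), the bile acid gene Cyp8b1 by 0.46 (SE 0.22) and Cyp4v3 by 0.18 (SE 0.10). Of markers for hepatocytes around the central vein, where CAR targets and Cyp1a2 are known to be concentrated, 0 of 10 passed (median -0.03), and of periportal markers 0 of 10 (median 0.13). Fasting response genes gave 0 of 12 (median -0.06), with Cyp4a10 at 0.90 (SE 0.43, adjusted p = 0.783). Acute phase genes, which inflammation raises while it lowers many P450 genes, gave 0 of 12 (median -0.11), with Itih4 at -0.29 (SE 0.10, adjusted p = 0.770).

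The genes whose levels ran most like each receptor or P450 gene were sought among 14053 other genes, with Pearson's r over the 8 mice after the genotype means were taken out, as a description without a test. For Nr1i2 they were Anxa7 and Hook2, and for Por Dlgap4 and Lonrf1, named without r because the largest gap of Nr1i2 and Por leaves 4 mice on either side. For Nr1i3 they were Daam1 (0.985) and Nadsyn1 (0.975), and for Ahr 1700019N19Rik (0.955) and Cth (0.947). For Cyp1a1 they were Norad (0.997) and Acads (0.978), and for Cyp1a2 H2ac19 (0.978) and Mthfd1 (0.974). Cyp2b10 and Cyp2b9 had Tmem35b in common (0.979 and 0.984), beside Fam241b for Cyp2b10 (0.980) and Bco2, a carotenoid oxygenase gene, for Cyp2b9 (0.985). For Cyp2b13 they were Adssl1 (0.984) and Gatd3a (0.983). Values this high are common with 8 mice: 227 genes exceeded 0.9 for Nr1i2, 182 for Por, 124 for Cyp2b13, 109 for Nr1i3 and 14 for Ahr, and all points share the same arrays.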

How the data were processed

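Single-colour Agilent arrays of 8 livers were analysed. Per the file headers the authors extracted the intensity of each spot with Agilent Feature Extraction 10.7.3.1, background-subtracted and not normalized between arrays. The deposited table of processed values is on the log2 scale and differed from normexp (offset 50) plus quantile values by a median of 0.0017. Here log2 processed signals were set against each array's 75th percentile. Probes well above background on at least 4 of 8 arrays were kept, named through RefSeq accessions (46.8% of probes), and each gene was read from its brightest probe. Genotypes were compared with limma 3.58.1 in R 4.3.3, with Benjamini-Hochberg adjustment over all genes and intervals of 95%, after testing on simulated data. The array number limits precision. The scanner files hold no mean signal, so normexp used the median signal. Alternatives covered background, normalization, filter, probe choice, slide, replicate number and each mouse left out. Genes named in lists are those with the 4 smallest p values, and the 2 most alike genes per member; others were named after their values were seen. A result that this rule names is not reported here. Members and lists were chosen with earlier results of these data known. Same-numbered mice did not deviate together (r from -0.18 to 0.10).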

Additional observations from a re-analysis of the deposited data

Results flagged for a closer look

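In 4 of 70 groups of 4 mice that were examined, 1 mouse lay far from the other 3, by the gap to its nearest neighbour as a share of the group's range (given in brackets), past the 95% critical value of Dixon's test. Chance gives about 1 in 20 groups. Nqo1 in wild-type mouse 1 was low, at -0.52 beside -0.08 for the nearest mouse (0.843). Aldh3a1 in wild-type mouse 1 was high, at 2.56 beside 1.90 (0.898). Cyp4v3 in Rap1 -/- mouse 3 was low, at 5.36 beside 5.49 (0.921). Nfe2l2 in Rap1 -/- mouse 1 was high by a small step, at 3.70 beside 3.67 (0.984), since the other 3 mice were nearly equal.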

How the results depend on the processing

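With each alternative tried, 0 of the receptor, reductase and P450 genes and 0 genes of the pathway lists passed the adjusted threshold. Of all genes, 0 passed with normexp and quantile normalization, the authors' value table, within slide 1 or with the replicate number as a block, and 1 with quantile normalization of the processed signal, no filter, a filter of all 8 arrays, slide as a block or within slide 2, beside 2 in the fit reported and with cyclic loess, 3 with the mean of tested probes or with eBayes trend and robust, and 1 with any mouse left out. The numbers do not pair the mice, and the cause of these differences was not tested. Signs of small differences turned: Nr1i2 to -0.0163 (quantile) and -0.0125 (cyclic loess), Nr1i3 to 0.00743 (mean of its probes), its second probe to -0.00817 (quantile), Ahr to -0.154 and Cyp1a2 to -0.0862 (within slide 2), and the second Ahr probe to 0.0105 (normexp), 0.318 (quantile), 0.103 (cyclic loess), 0.00946 (authors' table) and 0.228 (within slide 2). With 1 mouse left out, log2 differences ran from -0.158 to 0.191 for Nr1i2, -0.166 to 0.0723 for Nr1i3, -0.0278 to 0.121 for its second probe, 0.00 to 0.16 for Ahr, -0.255 to 0.15 for its second probe, -0.312 to 0.0587 for Por, 0.21 to 0.44 for Cyp1a1, -0.0392 to 0.192 for Cyp1a2, 0.02 to 0.36 for Cyp2b10, 0.02 to 0.24 for Cyp2b9 and 0.24 to 0.77 for Cyp2b13. Cyp1a1 had an unadjusted p of 0.015 with cyclic loess and Cyp2b13 of 0.0164 without Rap1 -/- mouse 2, and neither passed adjustment.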
